A study of Mus musculus with 12 samples.

Results

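Pyroptosis and necroptosis are lytic forms of programmed cell death, and the mRNA levels of 10 genes of their core machinery were examined in sham and ischemic mouse brains. The genes were chosen by name, as Casp1, Casp4, Casp8, Gsdmd, Nlrp3, Pycard, Ripk1, Ripk3, Mlkl and Zbp1, and each was found exactly once under its Ensembl identifier among the 31208 genes of the deposited table. The brains came from 12 C57BL/6 mice aged 8 weeks, with 4 mice in each of 3 groups. The sham group had no ischemia, and the sources used here do not say whether these mice received an injection. The vehicle group (ischemia 6 h + vehicle) was injected with sterile saline into the cerebral ventricle on the day before occlusion of the left middle cerebral artery, and the brain was taken after 6 h of ischemia. The lactate group (ischemia 6 h + lactate) received lactate by the same route and on the same schedule. The methods name the D form of lactate for this experiment, whereas the sample labels do not give the form. No group received lactate without ischemia. The study left out occlusions that failed or that killed the mouse, so the ischemic groups hold only mice with symptoms that survived to sampling. Long cDNA reads from a nanopore sequencer were counted per gene, and CPM is the count scaled to the total count of that mouse. As the samples were bulk brain tissue, fewer cells of a type and less RNA per cell cannot be told apart.

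In pyroptosis, a sensor such as Nlrp3 gathers the adaptor ASC, the product of Pycard, which in turn gathers and activates caspase-1. Caspase-1, or caspase-11 encoded by Casp4 after sensing intracellular lipopolysaccharide, cleaves gasdermin D, and the released fragment forms pores in the plasma membrane. In necroptosis, the kinases Ripk1 and Ripk3 bind each other through a shared motif, Ripk3 phosphorylates the pseudokinase Mlkl, and Mlkl then breaks the membrane. Zbp1 is an interferon-induced sensor of Z-form nucleic acid that binds Ripk3, and caspase-8 restrains necroptosis by cleaving the kinases. In brain, much of the inflammasome machinery is known from microglia and from blood-borne myeloid cells. Most steps of both pathways are controlled on the protein, which a count of mRNA does not show.

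Among the KEGG pathways listed beside the genes in the table, the necroptosis pathway held 8 of the 10 genes, the NOD-like receptor pathway also held 8, the cytosolic DNA-sensing pathway held 5 and the TNF pathway held 4. All 10 genes are protein-coding in GENCODE release M21 on GRCm38. Casp1 (chr9:5298517-5307265) and Casp4 (chr9:5308828-5336783) are neighbours on the plus strand of chromosome 9. Pycard (chr7:127989708-127993867), Ripk3 (chr14:55784995-55788865), Mlkl (chr8:111311797-111338177) and Zbp1 (chr2:173206612-173218923) lie on the minus strand. Casp8 (chr1:58795374-58847503), Gsdmd (chr15:75862327-75867408), Nlrp3 (chr11:59541568-59566956) and Ripk1 (chr13:34002363-34037147) lie on the plus strand. Ripk1 overlaps the coding gene Serpinb6a on the opposite strand, and the pseudogenes Gm17083 and Gm17084. Pycard overlaps Gm45205 and Mlkl overlaps the pseudogene Gm45712, both on the opposite strand, and Casp8 overlaps Gm37760 on the same strand. Whether the counting used strand is not given in the sources used here, so the counts of these genes could hold reads of their neighbours.

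Promoter windows, from 250 bases before to 50 after an annotated start site, were found in RefSeq (GRCm38.p6) for 8 of the 10 genes, in 11 windows. They were searched on both strands for the interferon-stimulated response element (ISRE), the STAT-binding element GAS (TTCNNNGAA) and the kappa B consensus. The window of Ripk1 at chr13:34002624-34002923, plus strand, was the only one of the 11 with an ISRE and the only one with GAS elements. The ISRE began 5 bases before the start site and overlapped the second of 2 GAS elements, which began 108 and 11 bases before it. Both windows of Casp4 and 1 window of Nlrp3 held a kappa B match. In the window of Casp4 at chr9:5308599-5308898, plus strand, 2 overlapping kappa B matches began 93 and 92 bases before the start site. Across all 32851 windows of the same length, 3.44% held an ISRE, 8.3% a GAS element and 4.51% a kappa B match. The windows of Ripk1 and Casp4 are printed because they hold these matches, with the matched bases in capitals, and that of Ripk3 (chr14:55788808-55789107, minus strand), which held none of these motifs, because Ripk3 had the largest difference among the genes that passed the filter on low counts.
Ripk1: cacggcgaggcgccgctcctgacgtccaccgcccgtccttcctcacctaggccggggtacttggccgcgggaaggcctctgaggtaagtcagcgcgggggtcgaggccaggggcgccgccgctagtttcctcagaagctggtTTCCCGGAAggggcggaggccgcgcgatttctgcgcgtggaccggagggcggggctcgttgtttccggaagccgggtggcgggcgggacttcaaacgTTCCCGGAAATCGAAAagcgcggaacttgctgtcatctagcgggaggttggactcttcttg
Casp4: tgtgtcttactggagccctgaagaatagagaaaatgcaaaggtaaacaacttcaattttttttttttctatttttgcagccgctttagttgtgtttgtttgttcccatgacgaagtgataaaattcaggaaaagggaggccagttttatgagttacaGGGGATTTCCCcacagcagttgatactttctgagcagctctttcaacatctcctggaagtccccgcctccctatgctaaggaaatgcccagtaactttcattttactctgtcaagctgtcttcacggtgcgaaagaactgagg
Ripk3: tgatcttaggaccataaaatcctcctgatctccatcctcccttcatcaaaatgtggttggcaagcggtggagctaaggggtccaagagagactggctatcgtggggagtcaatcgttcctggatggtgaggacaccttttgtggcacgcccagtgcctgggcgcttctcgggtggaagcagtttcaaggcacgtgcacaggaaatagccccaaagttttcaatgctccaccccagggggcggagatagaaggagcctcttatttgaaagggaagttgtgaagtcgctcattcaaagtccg
A match describes the letters of the window, and binding of a factor was not measured here.

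All 10 genes had few counts in these bulk brain samples. Their mean CPM lay between the percentiles 24.6 (Mlkl) and 55.2 (Pycard) of all detected genes, with Casp8 at 51.8. Total counts per mouse ranged from 6815920 to 10677224, and 3 counts, taken as the smallest level told from 0, equalled 0.281 to 0.44 CPM. Summed over the 12 mice, Pycard had 324 counts, Casp8 248, Ripk1 154 and Gsdmd 126. The other genes had fewer, namely 78 for Casp4, 72 for Ripk3, 68 for Casp1, 47 for Nlrp3, 45 for Zbp1 and 42 for Mlkl. Zbp1 was at or under 3 counts in 8 of 12 mice, Mlkl in 6, and Nlrp3 and Ripk3 in 5 each. The summed level of the 10 genes was 9.5 to 12.9 CPM in sham mice, 9.27 to 13.3 CPM in vehicle mice and 12.6 to 17.5 CPM in lactate mice, so that sham and vehicle overlapped whereas 3 of 4 lactate mice lay above all mice of the other groups. In a principal component analysis of 18134 genes, vehicle mouse 1 stood apart on the second component, at -66.88 against -10.15 to 21.81 in the other 11 mice. The summed level of choroid plexus markers, led by Ttr, reached 1850 CPM in vehicle mouse 2 and was 19.5 CPM or less in every other mouse. For the genes among the 10 that passed the filter, a mouse without which a call was lost is named beside it. The other calls were not tested in this way.

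**Figure D1:**
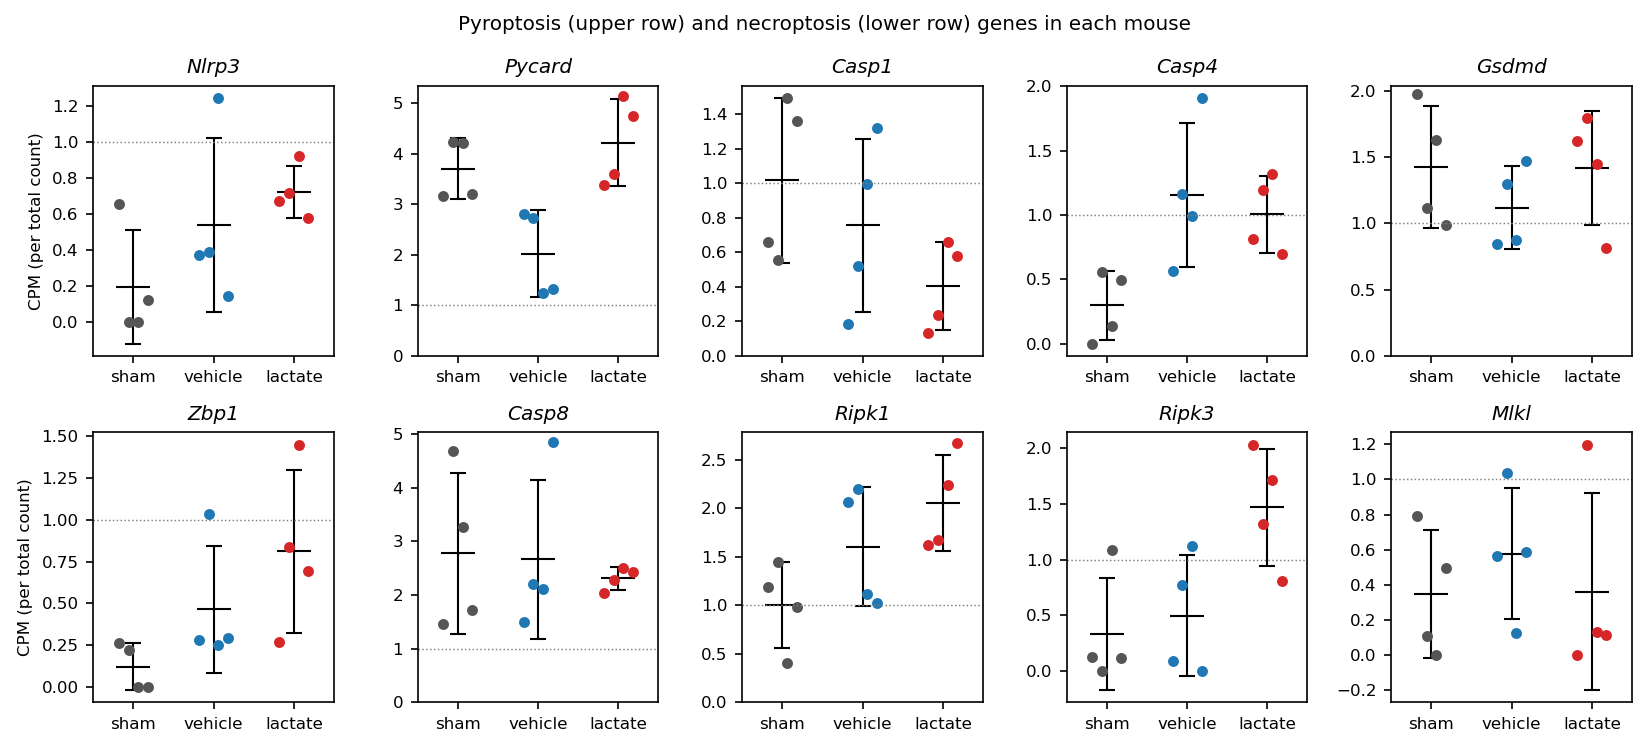
Level of each gene in every mouse, in CPM per total count on the y axis, for sham, vehicle and lactate mice on the x axis. Points are mice in the order 1 to 4 from left to right, horizontal lines are group means and bars are 1 SD (n = 4). The dotted line marks the 1 CPM of the filter on low counts. Pycard was lower in all 4 vehicle mice than in any other mouse, and Ripk1 and Casp4 were higher in all 4 lactate mice than in any sham mouse.

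The groups were compared in pairs with edgeR's quasi-likelihood test on counts, among genes that reached 1 CPM in at least 4 of the 8 mice compared. A gene was called up or down at an unadjusted p under 0.05 with a 1.5-fold or larger change. The p-values were adjusted over all genes tested by the method of Benjamini and Hochberg. Only 4 of the 10 genes passed the filter in vehicle against sham (Casp8, Gsdmd, Pycard and Ripk1), 5 in lactate against sham (the same genes and Ripk3) and 6 in lactate against vehicle (those and Casp4). A gene can pass the filter through the group in which it is high. Ripk3 passed through 3 lactate mice and 1 sham mouse at 1 CPM or more, and against vehicle through 3 lactate mice and 1 vehicle mouse. Casp1, Nlrp3, Mlkl and Zbp1 did not pass in any comparison. For genes below the filter, the counts, an exact permutation test of the CPM and a fit without the filter are given. That permutation test has 70 assignments of 8 mice, so its smallest two-sided p is 0.0286, and it was run 15 times without adjustment.

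In vehicle against sham, 1 of the 4 tested genes was called down (Pycard) and none was called up, beside 3.01% of all tested genes called down and 6.50% called up. With edgeR's quasi-likelihood fit, 0 of the 4 had an adjusted p under 0.05, beside 1.47% of all tested genes, and 1 had an unadjusted p under 0.05. The edgeR exact test and DESeq2 also gave 0. In lactate against sham, 2 of the 5 tested genes were called up (Ripk1 and Ripk3) and none down, beside 11.9% up and 5.65% down among all tested genes. Here 12.3% of all genes had an adjusted p under 0.05 and 0 of the 5 did by edgeR's quasi-likelihood test, with 2 at an unadjusted p under 0.05, whereas the edgeR exact test and DESeq2 each gave 1, Ripk3. In lactate against vehicle, 2 of the 6 tested genes were called up (Pycard and Ripk3) and none down, beside 3.76% up and 2.47% down. Of all genes, 0.00574% had an adjusted p under 0.05 in this comparison. Of the 6 genes, 0 did by edgeR's quasi-likelihood test or by its exact test, and 2 had an unadjusted p under 0.05 by the former. DESeq2 gave no adjusted p here for Ripk3, Gsdmd and Casp4, and those of Casp8, Ripk1 and Pycard were not under 0.05. The smallest adjusted p over the tested genes by edgeR's quasi-likelihood test was 0.302 in vehicle against sham, 0.0545 in lactate against sham and 0.496 in lactate against vehicle.

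Pycard, the inflammasome adaptor and the most counted of the 10 genes, was lower in vehicle-treated ischemic brains than in both other groups. Its level was 3.16, 4.24, 4.21 and 3.21 CPM in sham mice 1 to 4. In the vehicle mice it was 2.81, 2.72, 1.24 and 1.32 CPM, and in the lactate mice 3.38, 3.59, 5.14 and 4.75 CPM. Every vehicle mouse was below every sham and every lactate mouse, and vehicle mice 3 and 4 were the lowest of all 12. The means were 3.7 ± 0.599 CPM in sham, 2.02 ± 0.857 CPM in vehicle and 4.22 ± 0.863 CPM in lactate mice (SD, n = 4). Relative to sham, the vehicle group was lower by a log2 fold change of -0.81 (SE 0.332), with an adjusted p of 0.302 by edgeR's quasi-likelihood test. This call was lost when sham mouse 2, sham mouse 3, vehicle mouse 3 or vehicle mouse 4 was left out, with log2 fold changes of -0.72, -0.75, -0.63 and -0.66. Relative to vehicle, the lactate group was higher by a log2 fold change of 1.01 (SE 0.338), that is 2.01-fold, with an adjusted p of 0.496 by edgeR. This difference kept its call without each of the 8 mice in turn, with log2 fold changes from 0.83 to 1.23. Lactate and sham mice overlapped, and their log2 fold change was 0.21 with a 95% interval from -0.31 to 0.73.

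The summed level of microglial markers was, like Pycard, lowest on average in vehicle mice and highest in lactate mice. The summed CPM of the 12 microglial markers was 310 to 333 in sham, 226 to 315 in vehicle and 315 to 382 in lactate mice. Of these markers, 3 of 11 tested were called down in vehicle against sham (P2ry12, Cx3cr1 and Gpr34), beside 3.01% of all tested genes. Only Cx3cr1, 1 of 11, was called up in lactate against vehicle, beside 3.76%. In lactate against sham 3 of 12 were called up (Fcrls, Olfml3 and Itgam) and 2 down (P2ry12 and Gpr34), beside 11.9% and 5.65%. P2ry12 had log2 fold changes of -1.01 in vehicle and -1.10 in lactate mice against sham, and Gpr34 had -1.47 and -1.28. Cx3cr1 had -1.21 and -0.56 in the same comparisons, and 0.63 in lactate against vehicle. The microglial sums of vehicle mice 1 to 4 were 226, 315, 289 and 246 CPM, beside Pycard levels of 2.81, 2.72, 1.24 and 1.32 CPM. The part of these marker levels in the difference of Pycard was not tested. For Pycard in vehicle against sham, the log2 fold change was -1.03 without vehicle mouse 1 and -0.97 without vehicle mouse 2. In lactate against vehicle it was 1.23 and 1.17 without these mice, and all of these kept the call.

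Among the other pyroptosis genes, the sensor Nlrp3 was counted 5, 0, 0 and 1 times in sham mice 1 to 4. In the vehicle mice it was counted 4, 3, 10 and 1 times, and in the lactate mice 5, 6, 7 and 5 times. All 4 lactate mice had 5 counts or more, as did 1 sham and 1 vehicle mouse. The mean level was 0.196 ± 0.314 CPM in sham, 0.539 ± 0.484 CPM in vehicle and 0.724 ± 0.145 CPM in lactate mice (SD, n = 4). Against sham, the exact permutation p was 0.314 for vehicle and 0.0571 for lactate mice, and it was 0.514 between the ischemic groups.

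Casp1, which encodes the caspase that the inflammasome activates, was counted 5, 5, 11 and 11 times in sham mice 1 to 4. It was counted 2, 4, 8 and 9 times in vehicle mice and 1, 2, 5 and 5 times in lactate mice. The groups overlapped in all comparisons, with the lowest mean in lactate mice. The means were 1.02 ± 0.477 CPM in sham, 0.755 ± 0.502 CPM in vehicle and 0.403 ± 0.255 CPM in lactate mice (SD, n = 4). By the exact permutation test, p was 0.429 between vehicle and sham mice, 0.114 between lactate and sham mice and 0.343 between the ischemic groups.

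Casp4, which encodes the lipopolysaccharide-sensing caspase-11, was higher in both ischemic groups than in sham mice. Its counts were 0, 5, 1 and 4 in sham mice 1 to 4, 6, 9, 8 and 13 in vehicle mice, and 6, 10, 10 and 6 in lactate mice. In CPM these were at most 0.557 in sham mice and at least 0.562 and 0.696 in the vehicle and lactate mice, so that the sham group overlapped neither ischemic group. The margin to the lowest vehicle mouse, vehicle mouse 1, was below the level of 1 count. Summed over the mice of a group, the level was 3.47 times that of sham in vehicle mice (95% counting interval 1.69 to 7.84) and 3.21 times in lactate mice (1.54 to 7.31). These intervals cover counting error only. The exact permutation p was 0.0286, the smallest possible, against sham in both ischemic groups. Lactate and vehicle mice overlapped, with a log2 fold change of -0.18 and a 95% interval from -1.13 to 0.77, and the value was 0.15 without vehicle mouse 4.

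Gsdmd, which encodes the pore-forming gasdermin D, was 1.98, 1.11, 1.63 and 0.987 CPM in sham mice 1 to 4. It was 0.843, 1.3, 0.871 and 1.47 CPM in vehicle mice and 1.62, 1.8, 1.45 and 0.812 CPM in lactate mice. The groups overlapped in all 3 comparisons and no call was made. The 95% interval of the log2 fold change ran from -1.12 to 0.47 in vehicle against sham, from -0.74 to 0.80 in lactate against sham and from -0.49 to 1.16 in lactate against vehicle, so a 1.5-fold difference in at least 1 direction lies within each interval. The log2 fold change of lactate against sham, 0.03, ranged from -0.11 to 0.23 when 1 mouse was left out.

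Of the necroptosis genes, Ripk3, which encodes the kinase that phosphorylates Mlkl, had the largest difference among those that passed the filter on low counts. Its counts were 1, 0, 8 and 1 in sham mice 1 to 4, 1, 6, 9 and 0 in vehicle mice, and 15, 11, 13 and 7 in lactate mice. In CPM, the sham mice were at 0.132, 0, 1.09 and 0.123. The vehicle mice were at 0.0937, 0.777, 1.12 and 0, and the lactate mice at 2.03, 1.32, 1.71 and 0.812. Lactate mice 1 to 3 were above every sham and vehicle mouse, whereas lactate mouse 4 was below sham mouse 3 and vehicle mouse 3. The means were 0.335 ± 0.504 CPM in sham, 0.498 ± 0.541 CPM in vehicle and 1.47 ± 0.525 CPM in lactate mice (SD, n = 4). Lactate mice were higher than sham mice by a log2 fold change of 2.18 (SE 0.684), that is 4.52-fold, with an adjusted p of 0.0545 by edgeR's quasi-likelihood test. The adjusted p was 0.00543 by the edgeR exact test and 0.0482 by DESeq2, and over all alternatives it ran from 0.00543 to 0.133. The call held without each of the 8 mice in turn, and the log2 fold change rose to 3.95 without sham mouse 3. Without that mouse the sham counts were 1, 0 and 1 and only lactate mice reached 1 CPM, so this fit is a description only. Lactate mice were higher than vehicle mice by a log2 fold change of 1.53 (SE 0.685), with an adjusted p of 0.555 by edgeR. This call was lost without vehicle mouse 1, vehicle mouse 4, lactate mouse 1, lactate mouse 2 or lactate mouse 3, with log2 fold changes of 1.13, 1.17, 1.33, 1.58 and 1.44. It was also lost with all 12 mice in 1 fit, at 1.55. Without vehicle mouse 3 the call held and the log2 fold change was 2.28, but only lactate mice then reached 1 CPM. That fit is likewise a description only. Vehicle and sham mice overlapped, with an exact permutation p of 0.83.

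Ripk1, which encodes the kinase upstream of Ripk3, was 1.19, 1.45, 0.407 and 0.987 CPM in sham mice 1 to 4. It was 2.06, 2.2, 1.12 and 1.03 CPM in vehicle mice and 1.62, 1.68, 2.24 and 2.67 CPM in lactate mice. Every lactate mouse was above every sham mouse, and vehicle mice fell on both sides of the gap. The means were 1.01 ± 0.443 CPM in sham, 1.6 ± 0.614 CPM in vehicle and 2.05 ± 0.496 CPM in lactate mice (SD, n = 4). Lactate mice were higher than sham mice by a log2 fold change of 1.03 (SE 0.374), that is 2.04-fold, with an adjusted p of 0.0924 by edgeR's quasi-likelihood test. The call was lost without lactate mouse 4, at a log2 fold change of 0.87. In vehicle against sham the log2 fold change was 0.70 with an adjusted p of 0.509 by edgeR. In lactate against vehicle it was 0.32, with a 95% interval from -0.47 to 1.10.

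Zbp1, which encodes the sensor that engages Ripk3, was counted 2, 2, 0 and 0 times in sham mice 1 to 4, 3, 8, 2 and 2 times in vehicle mice, and 2, 7, 11 and 6 times in lactate mice. In CPM the lowest lactate mouse, at 0.27, was just above the highest sham mouse, at 0.264, so these groups did not overlap by a margin below 1 count. The means were 0.122 ± 0.142 CPM in sham, 0.465 ± 0.381 CPM in vehicle and 0.814 ± 0.488 CPM in lactate mice (SD, n = 4). Summed over mice, the level in lactate was 6.51 times that in sham, with a 95% counting interval from 2.26 to 25.7 from 26 and 4 counts. Against sham, the exact permutation p was 0.0286 in lactate and 0.0571 in vehicle mice, and it was 0.343 between lactate and vehicle mice. Vehicle mouse 2, the mouse with the high choroid plexus markers, alone supplied 8 of the 15 counts of its group.

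Mlkl, the executioner of necroptosis, was counted 6, 1, 0 and 4 times in sham mice 1 to 4, 6, 8, 1 and 4 times in vehicle mice, and 0, 10, 1 and 1 times in lactate mice. Lactate mouse 2 supplied 10 of the 12 counts of its group, at 1.2 CPM against 0 to 0.132 CPM in the other lactate mice. The exact permutation p was 0.429, 0.886 and 0.6 for vehicle against sham, lactate against sham and lactate against vehicle. The ratio of summed levels was 1.09 for lactate to sham, with a 95% counting interval from 0.442 to 2.73.

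Casp8, which encodes the caspase that restrains necroptosis and drives death receptor apoptosis, was 1.45, 4.68, 3.26 and 1.73 CPM in sham mice 1 to 4. It was 1.5, 2.2, 2.12 and 4.84 CPM in vehicle mice and 2.03, 2.28, 2.51 and 2.44 CPM in lactate mice. The lactate mice lay close together and inside the range of both other groups. No call was made in any of the 3 comparisons, with log2 fold changes of -0.07, -0.25 and -0.20 for vehicle against sham, lactate against sham and lactate against vehicle. The widest 95% interval, in vehicle against sham, ran from -1.04 to 0.90. The direction turned in each comparison when 1 mouse was left out, for example to 0.34 and 0.16 against sham without sham mouse 2 and to 0.24 in lactate against vehicle without vehicle mouse 4.

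**Figure D2:**
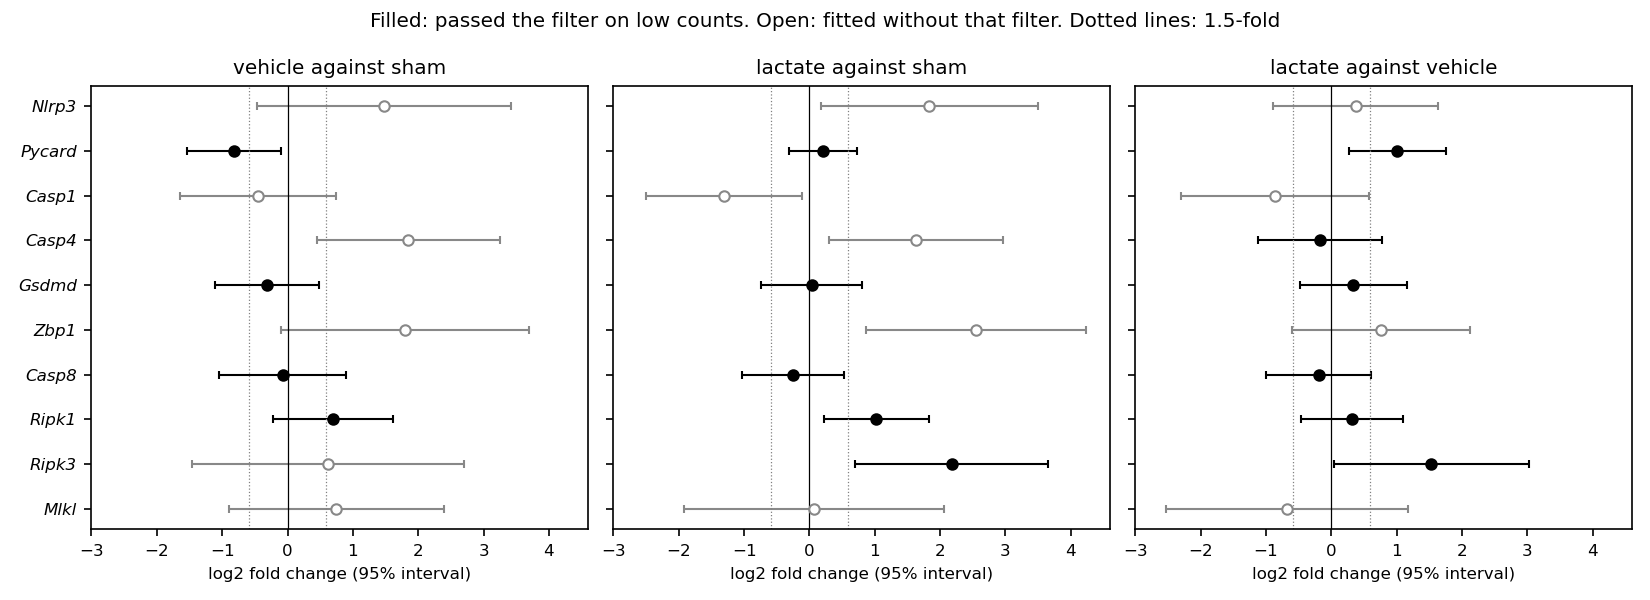
Log2 fold change of each gene on the x axis in the 3 comparisons, with 95% intervals. Filled points passed the filter on low counts, and open grey points come from the edgeR fit without that filter. Among filled points, the intervals of Ripk3 and Ripk1 in lactate against sham and of Pycard and Ripk3 in lactate against vehicle lie above 0, and that of Pycard in vehicle against sham lies below 0. Among open points, those of Casp4 in both comparisons with sham and of Nlrp3 and Zbp1 in lactate against sham lie above 0, and that of Casp1 in lactate against sham lies below 0.

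Without the filter on low counts, all 10 genes entered each fit. Casp4 was then called up in vehicle against sham and Pycard down, beside 7.26% of all genes up and 2.78% down. In lactate against sham, 5 genes were called up (Casp4, Nlrp3, Ripk1, Ripk3 and Zbp1) and 1 down (Casp1), beside 12.7% up and 5.69% down. The largest of these was Zbp1, at a log2 fold change of 2.55 and an adjusted p of 0.0523 by edgeR. In lactate against vehicle, Pycard and Ripk3 were called up and no gene down, beside 3.67% up and 2.64% down. The number with an adjusted p under 0.05 by edgeR's quasi-likelihood test without the filter was 0 in every comparison, whereas 2, 6 and 2 genes had the calls above at an unadjusted p under 0.05. The groups did not overlap for 2 of 10 genes in vehicle against sham (Casp4 and Pycard), for 3 in lactate against sham (Casp4, Ripk1 and Zbp1) and for 1 in lactate against vehicle (Pycard). Over all genes with a count in at least 1 of the 8 mice compared, 7.64%, 15.7% and 4.23% had groups that did not overlap in these comparisons. The vehicle and lactate groups were compared with the same 4 sham mice, so the values against sham are not independent of each other.

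**Figure D3:**
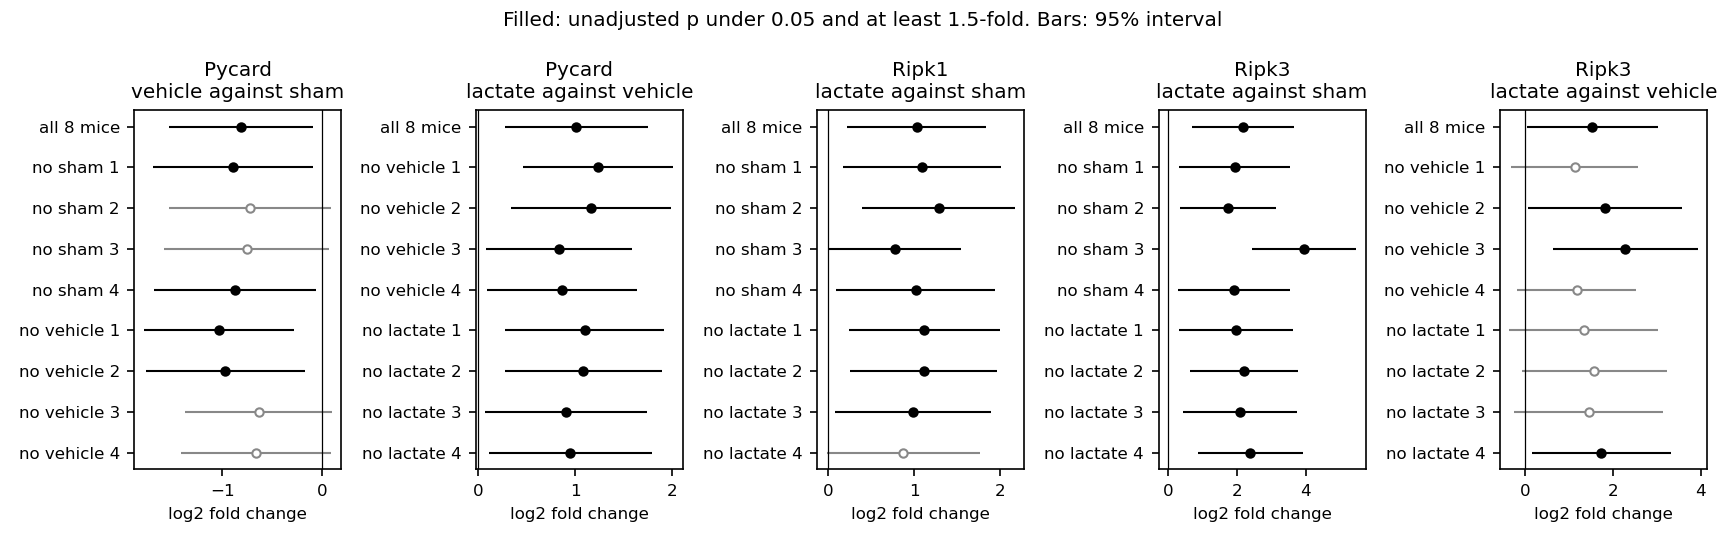
Log2 fold change with 95% interval on the x axis for the 5 called differences, with all 8 mice (top) and without each mouse in turn. Filled points met the limits of unadjusted p and fold change, and open grey points did not. Pycard in lactate against vehicle and Ripk3 in lactate against sham kept the call in 8 of 8 fits, Ripk1 in 7, Pycard in vehicle against sham in 4 and Ripk3 in lactate against vehicle in 3. In the Ripk3 fits without sham mouse 3 or without vehicle mouse 3, only lactate mice reached 1 CPM.

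Other genes of pyroptosis, 36 in all, hold upstream receptors, sensors, cytokines and membrane-rupture factors. In vehicle against sham 4 of 19 tested genes were called up and none down, beside 6.50% up and 3.01% down among all tested genes. In lactate against sham 5 of 21 were called up and 1 down, beside 11.9% and 5.65%. In lactate against vehicle edgeR called 0 of 20 in either direction, with the smallest unadjusted p at 0.079 (Myd88, adjusted p = 0.601), and the edgeR exact test and DESeq2 called 0 up. The single fit of all 12 mice called 1 up. The median log2 fold change of the tested genes was 0.17, -0.01 and -0.24 in these comparisons, against 0.00, -0.03 and -0.03 over all genes tested. Cd14, the co-receptor for lipopolysaccharide, was 1.97 to 2.45 CPM in sham, 7.87 to 61.1 CPM in vehicle and 15.6 to 38 CPM in lactate mice, so that both ischemic groups lay above sham. Its log2 fold change was 3.85 in vehicle against sham (adjusted p = 0.00243 by edgeR) and 3.46 in lactate against sham (adjusted p = 8.66e-06 by edgeR). Txnip, which can bind Nlrp3, rose from 4.69 ± 1.1 CPM in sham to 12.2 ± 0.796 CPM in vehicle and 9.9 ± 2.7 CPM in lactate mice (SD, n = 4), with adjusted p-values of 0.00387 and 0.00965 by edgeR. Ninj1, which ruptures the membrane after pore formation, was called up in both ischemic groups, at log2 fold changes of 0.87 and 0.63 against sham (adjusted p = 0.0672 and 0.0279 by edgeR). Irgm1, an interferon-induced GTPase, was called up in both at 0.66 and 0.67 (adjusted p = 0.212 and 0.061 by edgeR). Myd88, the adaptor of Toll-like receptors, had a log2 fold change of 1.28 in lactate against sham (adjusted p = 0.014 by edgeR). Gbp5, a GTPase known to promote Nlrp3 assembly, was called down in lactate against sham, at -0.68 (adjusted p = 0.0894 by edgeR). Il18, a cytokine that caspase-1 matures, had log2 fold changes of 0.17, -0.14 and -0.33 with no call. The mRNAs of Elane and Gsdmc had no count in any mouse.

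The other necroptosis genes, 44 in all, include death receptors, their adaptors, ubiquitin enzymes, kinases, interferon receptors and chaperones. Of these, 2 of 35 tested genes were called up in vehicle against sham and none down, a share up that is near the 6.50% of all tested genes. With all 12 mice in 1 fit, 4 were called up. In lactate against sham 3 of 37 were called up and 1 down, beside 11.9% and 5.65%, and in lactate against vehicle 1 of 38 was called down and none up, beside 2.47% and 3.76%. Their median log2 fold change was -0.00, 0.10 and 0.02 in the 3 comparisons. The death receptor Fas was 0.123 to 1.19 CPM in sham, 3.56 to 7.92 CPM in vehicle and 3.52 to 5.68 CPM in lactate mice, with no overlap of either ischemic group with sham. Its log2 fold change against sham was 3.16 in vehicle mice (adjusted p = 0.00274 by edgeR) and 2.73 in lactate mice (adjusted p = 0.00103 by edgeR). Tnfrsf1a, the main TNF receptor upstream of Ripk1, was 3.21 ± 0.408 CPM in sham, 6.03 ± 2.22 CPM in vehicle and 8.13 ± 0.946 CPM in lactate mice (SD, n = 4). Its adjusted p by edgeR was 0.165 in vehicle against sham and 0.00114 in lactate against sham. Birc3, a ubiquitin ligase that acts on Ripk1, was 0.334 to 0.951 CPM in sham, 0.656 to 5.35 CPM in vehicle and 1.49 to 3.83 CPM in lactate mice. It passed the filter against sham only through the 4 lactate mice and did not pass in vehicle against sham, so its call, 1 of the 3 in lactate against sham, is a description only. Chuk, a kinase of the NF-kappa B pathway, was called down in lactate mice against both sham and vehicle, at log2 fold changes of -0.61 and -0.72 (adjusted p = 0.156 and 0.524 by edgeR). Hsp90aa1, a chaperone, was 1.28-fold of sham in lactate mice (adjusted p = 0.052 by edgeR), below the fold change limit. Tbk1, which restrains Ripk1, had log2 fold changes of -0.42 and -0.39 against sham in the vehicle and lactate groups, also below that limit. Cyld, Ifnar1 and Tab1 had no call in any comparison.

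A list of 26 other interferon-induced genes was examined because Zbp1 is known as an interferon-induced gene. In vehicle against sham 2 of 20 tested genes were called up and none down, beside 6.50% and 3.01% of all tested genes. In lactate against sham 6 of 20 were called up and 1 down, beside 11.9% and 5.65%. In lactate against vehicle 7 of 20 were called up and none down, beside 3.76% and 2.47%, and 0 of these 7 had an adjusted p under 0.05 by edgeR. The median log2 fold change was 0.10, 0.64 and 0.52. The summed CPM was 97.8 to 123 in sham, 96.7 to 142 in vehicle and 117 to 203 in lactate mice. In lactate mice 1 to 4 the sum was 117, 171, 182 and 203 CPM, beside Zbp1 counts of 2, 7, 11 and 6. Bst2, an antiviral membrane protein, was 1.78 to 3.39 CPM in sham, 2.81 to 4.01 CPM in vehicle and 6.49 to 11 CPM in lactate mice. Its log2 fold change was 1.72 in lactate against sham (adjusted p = 0.000918 by edgeR) and 1.43 in lactate against vehicle (adjusted p = 0.265 by edgeR). Ifitm3, which blocks viral entry, was called up in all 3 comparisons, at log2 fold changes of 0.76, 1.63 and 0.86, with adjusted p-values of 0.123, 7.52e-05 and 0.414 by edgeR. Irf7, a transcription factor of the interferon response, had log2 fold changes of 1.66 and 1.04 in lactate mice against sham and vehicle (adjusted p = 0.0111 and 0.536 by edgeR). Isg15, a ubiquitin-like modifier, had 1.11 and 0.97 in the same comparisons (adjusted p = 0.0276 and 0.496 by edgeR). Ifit1, an RNA-binding antiviral protein, had 0.93 and 1.17 (adjusted p = 0.0745 and 0.481 by edgeR). Ifit3 was called up in lactate against sham, at 0.84 (adjusted p = 0.0452 by edgeR), and Rsad2 in vehicle against sham, at 1.47 (adjusted p = 0.31 by edgeR). Xaf1 was 1.47-fold of sham in lactate mice, below the fold change limit.

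The markers of blood-borne myeloid cells were summed beside the levels of Casp4, Ripk3 and Zbp1. The summed CPM of 12 neutrophil markers was 3.46 to 8.04 in sham, 13.9 to 81.4 in vehicle and 23.9 to 48.8 in lactate mice. The median in sham, vehicle and lactate mice was 0.935, 16.1 and 11.3 CPM for S100a8, and 0.123, 12.7 and 8.1 CPM for S100a9. Ltf had no count in any mouse, and Ly6g was at most 0.249 CPM. The summed CPM of 12 monocyte and macrophage markers was 31 to 42.7 in sham, 51.5 to 56.1 in vehicle and 40.8 to 66.6 in lactate mice. Both lists were higher in vehicle than in sham mice without overlap, as Casp4 was, and Ripk3 overlapped between vehicle and sham mice. In lactate mice the monocyte and macrophage sum overlapped sham, and Casp4 did not. The neutrophil sums of vehicle mice 1 to 4 were 18.4, 61.1, 81.4 and 13.9 CPM, beside Ripk3 counts of 1, 6, 9 and 0. Those of lactate mice 1 to 4 were 29.1, 28.3, 48.8 and 23.9 CPM, beside Ripk3 counts of 15, 11, 13 and 7. The part of these cells in the differences of the 10 genes was not tested.

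**Figure D4:**
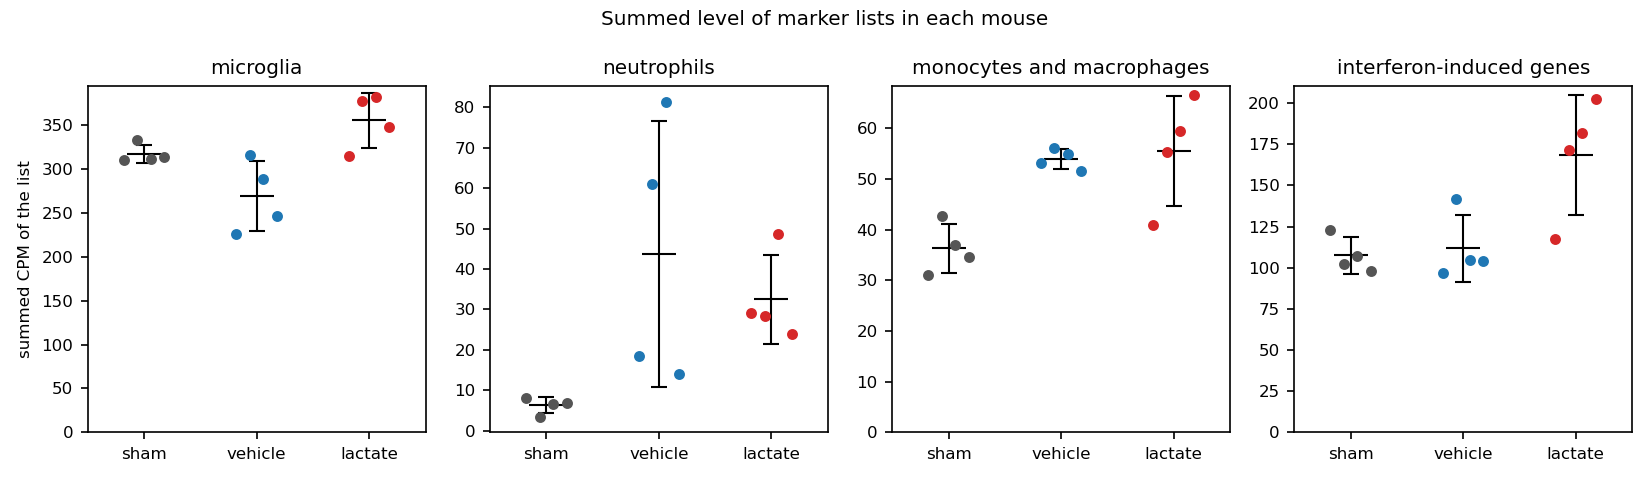
Summed CPM of the microglial, neutrophil, monocyte and macrophage, and interferon-induced gene lists on the y axis in each sham, vehicle and lactate mouse. Points are mice 1 to 4 from left to right, lines are means and bars are 1 SD (n = 4). The microglial sum was lowest in vehicle mice on average, the neutrophil sum was above sham in all 8 ischemic mice, and the interferon-induced sum was highest in 3 lactate mice.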

How the data were processed

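Brain RNA of 12 mice (4 sham, 4 vehicle, 4 lactate) was analysed, with groups and mouse numbers from the labels. The authors made the deposited counts from nanopore cDNA reads amplified by PCR. Short, poor and ribosomal reads had been discarded, and full-length reads were mapped by minimap2. Isoforms were then built by pinfish and matched to the annotation with gffcompare. The submitters' processing notes name GRCm38 and DESeq 1.10.1, and the counting per gene is not given in the sources used here. The authors' deposited CPM values equal each count divided by the total of its mouse and scaled to counts of 1 common total. No molecular identifiers are described for these reads, so intervals and the floor of 3 counts cover counting error only. The authors' edgeR p-values and fold changes were not used. The 4 lines without a gene were left out, and 0 per-sample columns were unused.

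The main test was edgeR 4.0.16 (R 4.3.3), quasi-likelihood with TMM, on the counts of 2 groups at a time, at a CPM of at least 1 in 4 of 8 mice. Calls needed an unadjusted p under 0.05 with a 1.5-fold or larger change. Principal components used the log2 CPM of edgeR. Replicates were treated as separate mice. The 10 genes, the lists of related genes and the cell type markers were chosen with earlier results of these data known. Named genes of a list are those with the smallest p, up to 6 for lactate against sham and up to 3 for each other comparison. Alternatives were the edgeR exact test, DESeq2 1.42.0, other size factors and filters, a fold change of 2, only Ensembl genes, all 12 mice in 1 fit, the replicate block and leaving out each mouse. Single-gene permutation tests used scipy 1.17.1. The scripts were tested on simulated data.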

Additional observations from a re-analysis of the deposited data

Results flagged for a closer look

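Of 30 groups of 4 mice (10 genes in 3 groups), 3 held a mouse that lay far from the other 3. The limit used marks about 1 group in 20 by chance among normally distributed values. Small counts such as these are not so distributed, and their chance rate was not estimated. Ripk3 reached 1.09 CPM in sham mouse 3, Mlkl reached 1.2 CPM in lactate mouse 2, and Zbp1 reached 1.04 CPM in vehicle mouse 2. These are 8, 10 and 8 counts.

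For 2 genes, the direct comparison of the 2 ischemic groups met the limits of unadjusted p and fold change. The log2 fold change of lactate against vehicle was 1.01 for Pycard (adjusted p = 0.496 by edgeR) and 1.53 for Ripk3 (adjusted p = 0.555 by edgeR), both past the unadjusted limit only. Ripk3 did not pass the filter in vehicle against sham, and its call here held in 3 of 8 fits without 1 mouse.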

How the results depend on the processing

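No single gene reversed its direction among the calls. With every gene in the fit (no filter on low counts), the number of the 10 genes called up became 1 in vehicle against sham and 5 in lactate against sham, and 1 was called down in the latter. At a CPM of at least 2, 0 were called up in lactate against sham and 1 in lactate against vehicle, since Ripk1 and Ripk3, or Ripk3, no longer entered. With all 12 mice in 1 fit, 1 was called up in vehicle against sham (Casp4), 3 in lactate against sham (Casp4, Ripk1 and Ripk3) and 1 in lactate against vehicle, where Ripk3 lost its call. At a fold change of at least 2, 0 were called down in vehicle against sham. When 1 mouse was left out, the number called down in vehicle against sham ranged from 0 to 1, that called up in lactate against sham from 1 to 2, that called up in lactate against vehicle from 1 to 2, and that with an adjusted p under 0.05 by edgeR in lactate against sham from 0 to 1. Ripk3 had an adjusted p by edgeR of 0.00704 without sham mouse 3 and 0.0445 without lactate mouse 4. Without sham mouse 3, only lactate mice reached 1 CPM for Ripk3, so the first value is a description only. The edgeR exact test and DESeq2 each gave 1 such gene. With the replicate block the number was also 1 (Ripk3, adjusted p = 0.0281). Mice of the same number are different animals, and their deviations correlated at -0.148 to 0.158, so the numbers do not pair them. The block also moved the interferon-induced genes called up in vehicle against sham from 2 to 1. The other settings run kept the numbers of the 10 genes called. The cause of the changes was not tested. Counts of 3 or fewer per mouse limit Zbp1, Mlkl, Nlrp3 and Ripk3 most.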
